A study of Mus musculus with 7 samples.

Results

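Wdfy1 and the Toll-like receptors, with the receptor adaptor Ticam1, were followed in macrophages from tumours of mice with and without Gpr65, a proton-sensing G-protein-coupled receptor. The 10 genes are Wdfy1, Ticam1, Tlr1, Tlr2, Tlr3, Tlr4, Tlr7, Tlr8, Tlr9 and Tlr13, of 53379 genes in the deposited count table, and all 10 were among the 16234 genes with enough counts to be tested. Wdfy1 was chosen by its measured difference between the genotypes in these same libraries, so its values are a description and carry no test. The other 9 genes were chosen as family members and as the adaptor that Wdfy1 is reported to work with.

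RNA was sequenced from macrophages sorted as positive for CD45, CD11b and F4/80 out of MC38 tumours, MC38 being a mouse colon carcinoma line, on day 21 after implantation. The animals were C57BL/6J mice on a high-fat diet, 4 of them Gpr65-wild-type and 3 Gpr65-knockout, with 1 library from each mouse. The genotype label reads Gpr65, while the sample titles spell the gene Grp65. All 7 mice carried the tumour and ate the high-fat diet, so there is no group on another diet and none without a tumour. The kind of knockout allele (whole-body or limited to a cell type), the ages and sexes of the mice, and whether the genotypes were littermates are not given in the sources used here.

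Toll-like receptors are membrane proteins with which macrophages sense microbial products and debris of dying cells. Some sit at the cell surface and bind lipids and lipoproteins, and others sit in endosomes and bind nucleic acids. Most pass their signal through the adaptor MyD88, whereas TLR3, and TLR4 after it is taken up into endosomes, use TRIF, the product of Ticam1, which leads to type I interferon. Wdfy1 encodes a protein with WD40 repeats and a FYVE domain, a fold that binds the endosomal lipid phosphatidylinositol 3-phosphate (PI3P), and it has been reported to bring TRIF to TLR3 and TLR4.

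Levels are given as CPM, the count of a gene relative to the total count of its library, scaled by TMM, a factor that corrects for libraries taken up by a few abundant genes. Libraries held 22449772 to 30483733 counts and 18276 to 23163 genes with at least 1 count. Gpr65 itself was at 93.4, 112, 92.6 and 65.2 CPM in wild-type 1 to 4 and at 0.683, 0.976 and 1.10 CPM in knockout 1 to 3, so each library matched its genotype label (log2 fold change -6.62, SE 0.30, edgeR adjusted p = 8e-05). Among the most variable genes alone, knockout 1 stood apart on the first principal component (44.2% of their variance), at -68.5 against -2.30 to 28.0 for the others. Knockout 2 had the lowest TMM factor, 0.807. Macrophage markers were high in every library: the 11 marker genes summed to 24017 to 28945 CPM in wild-type and 23325 to 46540 CPM in knockout mice. Monocyte markers summed to 747 to 4193 CPM in wild-type and 367 to 733 CPM in knockout mice. Of these 7 markers 1 was positive and 6 were negative in log2 fold change, and none was at 0. Chil3 made up 3241 of the 4193 CPM in wild-type 2 and was at 707 CPM in wild-type 4. Most of the remainder of each sum was Ccr2, at 621 to 872 CPM in wild-type and 294 to 489 CPM in knockout mice. The part of the monocyte markers in the results below was not tested. Neutrophil markers (at most 215 CPM, with Ly6g at 0 counts) and tumour and epithelial markers (at most 451 CPM) were lower. Cdh1 made up 437 of the 451 CPM in wild-type 4, and Epcam was at no more than 5.30 CPM in any library. Of the 6 tumour and epithelial markers 3 were tested, 0 with a positive and 3 with a negative log2 fold change. P-values here set the difference between genotypes against the spread between mice of a group. In such bulk RNA fewer cells of a type and less RNA per cell cannot be told apart.

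Shared sequence bears on how far the counts of these genes can be told apart. Of all 50-base words in the annotated transcripts of Tlr1, 15.4% (513 of 3332) also occur in another gene, 454 of them in Tlr6, its neighbour on chromosome 5. The longest identical coding stretch of that pair within single exons has 229 bases. It lies at chr5:64925537-64925765 in Tlr1 and at chr5:64953828-64954056 in Tlr6, both on the minus strand (GRCm38). It is shown because a read that falls inside it can be assigned to either gene.

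Tlr1 and Tlr6: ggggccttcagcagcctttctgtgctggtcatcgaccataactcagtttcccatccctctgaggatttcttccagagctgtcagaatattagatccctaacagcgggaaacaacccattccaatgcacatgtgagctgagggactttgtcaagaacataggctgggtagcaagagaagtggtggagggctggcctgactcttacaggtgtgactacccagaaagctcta

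Within single exons, Wdfy1 and Wdfy2, its nearest relative by domain make-up, share no coding stretch longer than 20 bases. Stretches that cross an exon border were not examined. The longest lies at chr1:79714913-79714932 on the minus strand and chr14:62944089-62944108 on the plus strand. That stretch is shown because it is shorter than the 50-base words. No such word that lies within a single exon of each gene can therefore come from both coding sequences.

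Wdfy1 and Wdfy2: gtcatcatgtgggacatcgg

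Of the words of Wdfy1, 1.66% (94 of 5669) occur in another gene, 77 of them in Mrpl44, whose first bases overlap Wdfy1 on the opposite strand. Ticam1, Tlr2, Tlr7, Tlr8, Tlr9 and Tlr13 shared 0 words with other genes, and Tlr4 shared 0.216%. Tlr3 shared 5.3%, all of it with Gm45542, an annotated antisense gene that had 0 counts in all libraries.

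Wdfy1 (ENSMUSG00000073643, chr1:79702262-79776143, minus strand) was higher in every knockout mouse than in any wild-type mouse. It stood at 13.7, 13.0, 15.6 and 13.3 CPM in wild-type 1 to 4 and at 57.1, 70.3 and 59.1 CPM in knockout 1 to 3. Wild-type libraries held 330 to 470 counts of the gene and knockout libraries 1607 to 1728, and the lowest knockout value lay far above the highest wild-type value. Means were 13.9 ± 1.18 CPM (SD, n = 4) and 62.1 ± 7.13 CPM (SD, n = 3), a 4.47-fold ratio and a fitted log2 fold change of 2.16 (SE 0.16). The mice of a group differed little from each other, with a coefficient of variation of 8.50% in wild-type and 11.5% in knockout. Knockout 1, which stood apart on the first principal component of the most variable genes, had the lowest of the 3 knockout values. Without knockout 1 the log2 fold change was 2.20. Leaving out each library in turn gave log2 fold changes of 2.06 to 2.21.

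The tested neighbours of Wdfy1 showed no fitted difference of that size. Within 500 kb on either side lie 20 other annotated genes, of which 6 had enough counts to be tested, and their log2 fold changes ran from -0.18 to 0.37, with 0 of 6 at an unadjusted p under 0.05 in edgeR and 0 adjusted. Mrpl44, a mitochondrial ribosomal protein gene that overlaps Wdfy1 by 126 bases on the plus strand, was at 21.6 ± 2.82 CPM (SD, n = 4) in wild-type and 19.1 ± 3.11 CPM (SD, n = 3) in knockout mice (log2 fold change -0.18, SE 0.20). Serpine2, a secreted protease inhibitor whose gene is 18054 bases away, had 0.13 (SE 1.13), and Ap1s3, an adaptor complex subunit at 30290 bases, had 0.37 (SE 0.73). Both were low, with 422 and 139 counts over all 7 libraries, and their errors are wide. Gm5529 (0.23, SE 0.18) and Gm28071 (0.15, SE 0.19) are annotated as processed pseudogenes, and their shared sequence was not examined. Cul3, at 488780 bases, had -0.15 (SE 0.19).

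**Figure D1:**
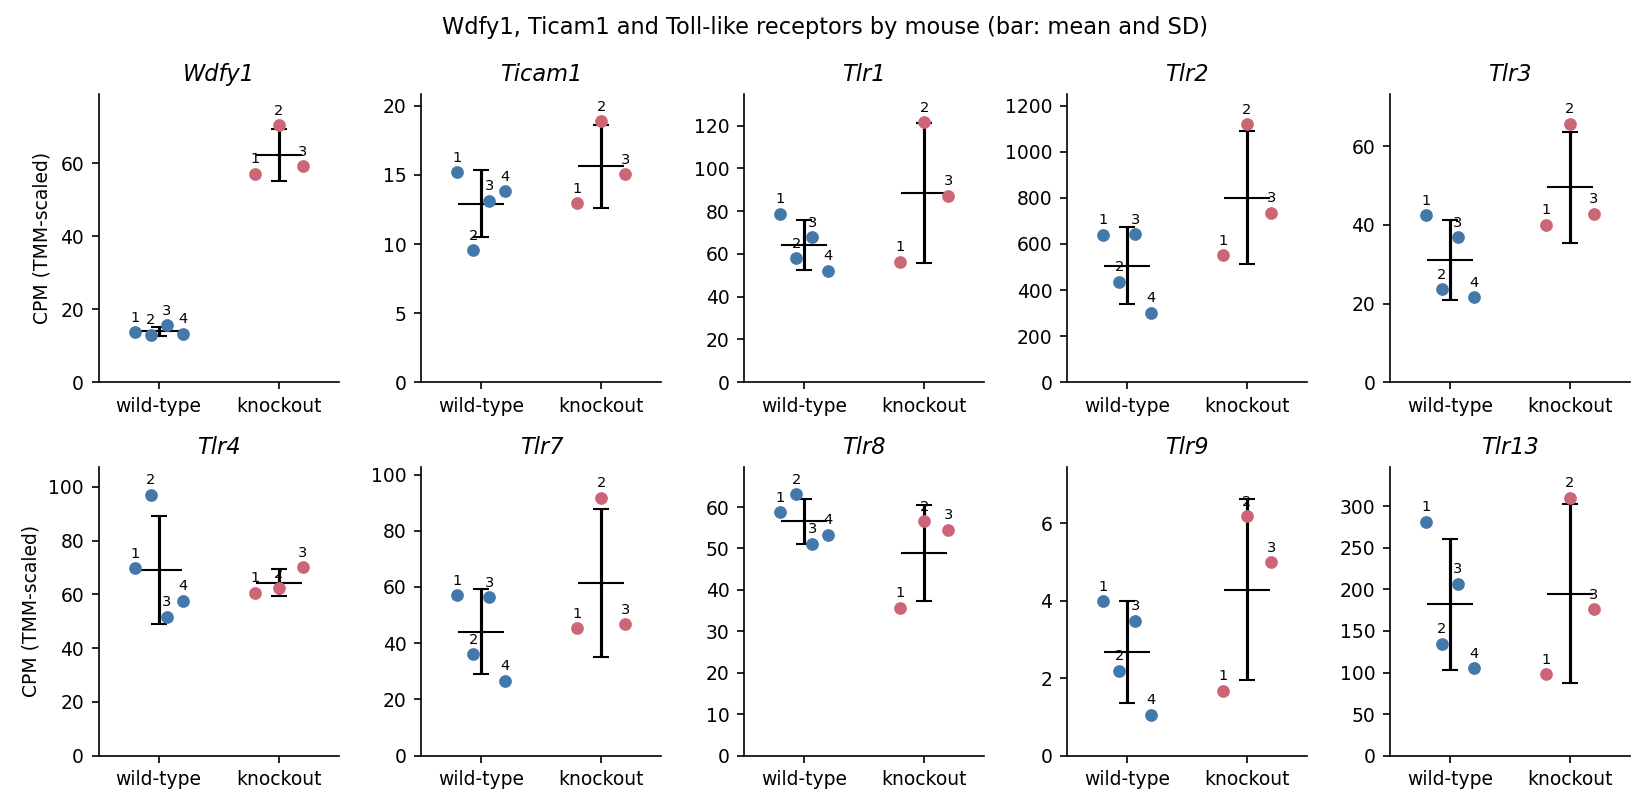
TMM-scaled CPM (vertical axes, each from 0) of Wdfy1, Ticam1 and 8 Toll-like receptor genes in 4 wild-type and 3 knockout mice, with points for mice, numbered, and bars for the mean and SD. Wdfy1 is at 13.0 to 15.6 CPM in wild-type and 57.1 to 70.3 CPM in knockout mice, while in the other 9 panels the genotypes overlap.

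Ticam1 and the 8 receptors did not separate by genotype. In edgeR's quasi-likelihood test with Benjamini-Hochberg adjustment over all genes, 0 of the 9 passed an adjusted p of 0.05, where 0.037% of all genes tested (6 of 16234) did. DESeq2 and limma voom also called 0 of the 9, beside 114 and 10 of the 16234 genes. At an unadjusted p under 0.05 there was 1 of 9 (Tlr3), beside 5.37% of all genes. In 0 of the 9 did the genotypes fall into ranges that do not overlap, where 2.8% of all genes had every knockout value above every wild-type value and 3.33% had every knockout value below. The fitted log2 fold change was positive for 7 and negative for 2, with a median of 0.46, beside a median of -0.0016 and 49.7% positive over all genes tested. These counts describe genes whose values move together, as given below, and the 9 are not separate observations.

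Of the receptors of the cell surface, Tlr2 was the most abundant. Tlr2, which pairs with TLR1 or TLR6 to bind bacterial lipoproteins (ENSMUSG00000027995, chr3:83836272-83841767, minus strand), was at 640, 436, 643 and 301 CPM in wild-type 1 to 4 and at 550, 1120 and 735 CPM in knockout 1 to 3. Knockout 2 was highest and wild-type 4 lowest, and knockout 1 lay between the wild-type values. Means were 505 ± 167 CPM (SD, n = 4) and 802 ± 290 CPM (SD, n = 3), and the log2 fold change of 0.67 (SE 0.32) did not pass (edgeR adjusted p = 0.97), being 0.34 without knockout 2. Tlr1, the partner for triacylated lipoproteins (chr5:64924679-64933563, minus strand), was at 78.7, 58.0, 67.7 and 52.2 CPM in wild-type and 56.3, 121.5 and 87.3 CPM in knockout mice. The same mice were at its ends, knockout 2 high and wild-type 4 low, and its log2 fold change was 0.46 with an SE of 0.26 (edgeR adjusted p = 1), with 0.16 without knockout 2.

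Tlr4, the receptor for lipopolysaccharide, which signals through both MyD88 and TRIF (chr4:66827584-66930284, plus strand), had a different order of mice. It was at 69.7, 97.0, 51.7 and 57.7 CPM in wild-type 1 to 4 and at 60.6, 62.4 and 70.0 CPM in knockout 1 to 3. Wild-type 2 was highest, and the 3 knockout values lay inside the wild-type range. The log2 fold change was -0.10 with an SE of 0.22 (edgeR adjusted p = 1), and its direction turned to 0.11 without wild-type 2 and to 0.10 in limma voom. Tlr4 is one of the receptors for which a role of Wdfy1 has been reported, and the differences, 2.16 for Wdfy1 and -0.10 for Tlr4, are on the same log2 scale.

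Tlr3, the endosomal receptor for double-stranded RNA and the other reported partner of Wdfy1 (chr8:45395665-45411080, minus strand), had the lowest unadjusted p of the 9. It was at 42.5, 23.7, 36.9 and 21.6 CPM in wild-type 1 to 4 and at 40.1, 65.8 and 42.9 CPM in knockout 1 to 3. Knockout 2 was highest and wild-type 4 lowest, and wild-type 1 lay above knockout 1, so the groups overlapped. Means were 31.1 ± 10.2 CPM (SD, n = 4) and 49.6 ± 14.1 CPM (SD, n = 3), with a log2 fold change of 0.67 (SE 0.29), an unadjusted edgeR p of 0.044 and an adjusted p of 0.92. Without knockout 2 the log2 fold change was 0.41. Tlr3 is also a marker of cross-presenting dendritic cells, and Xcr1, which defines those cells, was at 5.66, 4.32, 8.86 and 6.10 CPM in wild-type and 10.7, 18.9 and 20.4 CPM in knockout mice (log2 fold change 1.42, SE 0.32, edgeR adjusted p = 0.66). Of the 9 conventional dendritic cell markers, 4 had a positive and 5 a negative log2 fold change, among the latter Itgae (-0.99, SE 0.37), and none was at 0. They summed to 485 to 767 CPM in wild-type and 504 to 885 CPM in knockout mice. Most of each sum was Irf8, at 436.3 to 492.5 CPM in wild-type and 394.8 to 799.1 CPM in knockout mice. The part of these markers in the Tlr3 values was not tested.

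Ticam1, the gene of TRIF (ENSMUSG00000047123, chr17:56269319-56276786, minus strand), was low and even across mice. It was at 15.2, 9.57, 13.1 and 13.8 CPM in wild-type 1 to 4 and at 13.0, 18.9 and 15.0 CPM in knockout 1 to 3. Knockout 2 was highest and wild-type 2 lowest, with the other 5 mice within 13.0 to 15.2 CPM. The log2 fold change was 0.27 with an SE of 0.24 (edgeR adjusted p = 1). It was 0.11 without knockout 2 and 0.15 without wild-type 2.

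Among the other endosomal receptors, Tlr7, which binds single-stranded RNA (chrX:167304929-167330558, minus strand), was at 57.04, 36.1, 56.4 and 26.6 CPM in wild-type 1 to 4 and at 45.4, 91.8 and 46.8 CPM in knockout 1 to 3. Knockout 1 and knockout 3 lay between the wild-type values, and the log2 fold change of 0.48 (SE 0.34, edgeR adjusted p = 1) was 0.06 without knockout 2 and 0.29 without wild-type 4. Tlr8, its neighbour on the X chromosome and a receptor of the same subfamily (chrX:167242696-167264329, minus strand), was at 58.7, 63.1, 51.1 and 53.3 CPM in wild-type and 35.7, 56.6 and 54.6 CPM in knockout mice. Here knockout 1 alone lay below the wild-type range, and the log2 fold change was -0.21 with an SE of 0.20 (edgeR adjusted p = 1). It was -0.04 without knockout 1 and -0.05 in limma voom.

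Tlr13, which binds bacterial ribosomal RNA and is absent from humans (chrX:106143204-106160493, plus strand), had one of the widest spreads between mice. It was at 281, 135, 207 and 105 CPM in wild-type 1 to 4 and at 98.0, 310 and 176 CPM in knockout 1 to 3. The ends of its range were both knockout mice, knockout 1 low and knockout 2 high. Its log2 fold change of 0.10 (SE 0.43, edgeR adjusted p = 1) turned to -0.41 without knockout 2, to -0.02 without wild-type 2, to -0.10 without wild-type 4, to -0.11 with library size alone and to -0.19 with mouse number as a block. Tlr9, which binds CpG DNA (chr9:106222598-106226883, plus strand), was the lowest, at 3.99, 2.20, 3.48 and 1.06 CPM in wild-type and 1.67, 6.18 and 4.999 CPM in knockout mice. These rest on 29 to 152 counts a library, and the log2 fold change of 0.67 (SE 0.57, edgeR adjusted p = 1) has the widest error of the 9. It was 0.31 without knockout 2, 0.40 without wild-type 4, 1.05 without knockout 1 and 0.28 with mouse number as a block.

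Tlr7 and Tlr9 are abundant in plasmacytoid dendritic cells and B cells, so the markers of those cells are given beside them. Of 6 plasmacytoid dendritic cell markers, 4 were tested, 1 with a positive and 3 with a negative log2 fold change, and the list summed to 6.71 to 11.95 CPM in wild-type and 4.15 to 8.10 CPM in knockout mice. Its defining marker Siglech was at no more than 2.56 CPM in any library. Of 6 B cell markers, 2 were tested, 1 in each direction, with sums of 8.44 to 20.8 CPM in wild-type and 9.64 to 41.5 CPM in knockout mice. Most of these sums was Cd79b, while Cd79a was at no more than 0.292 CPM in any library. No marker of either list was at 0 in every library, and their part in the Tlr7 and Tlr9 values was not tested.

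**Figure D2:**
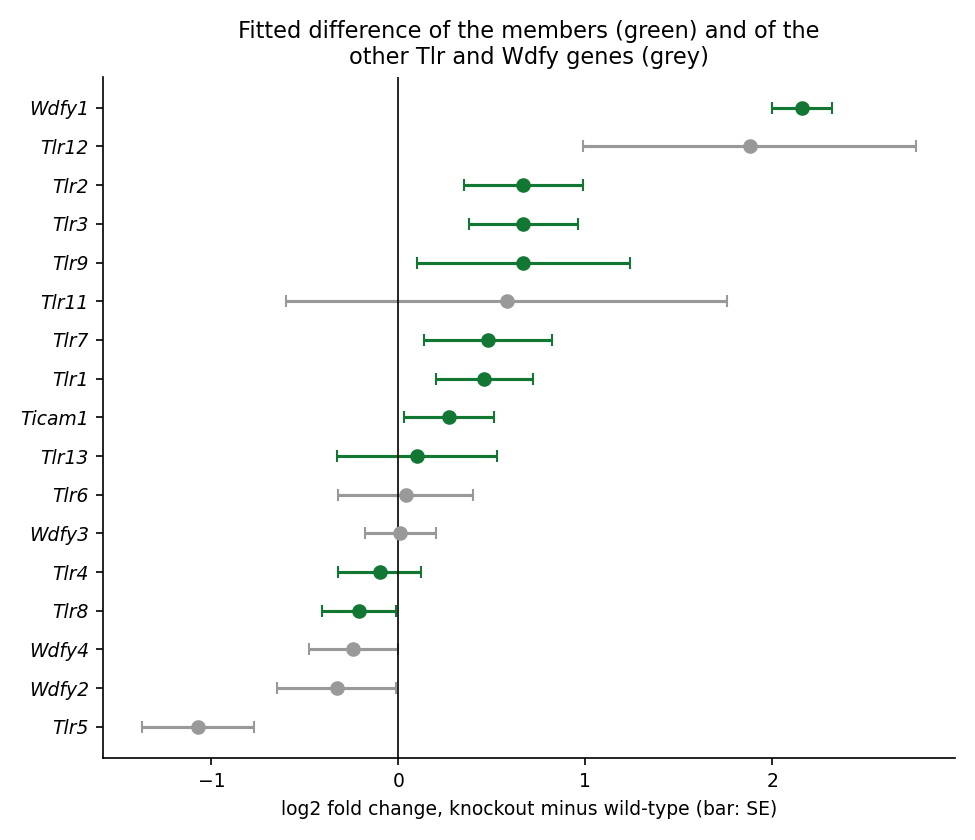
Fitted log2 fold change, knockout minus wild-type (horizontal axis), with its SE as a bar, for Wdfy1, Ticam1 and 8 receptors (green) and for the other Tlr and Wdfy genes (grey). Wdfy1 lies at 2.16, and Ticam1 and the 8 receptors run from -0.21 to 0.67.

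Many of the receptor genes had the same libraries at the ends of their range. Of the 9 genes other than Wdfy1, 7 had their highest CPM in knockout 2, as had 17.7% of all genes tested, and 5 had their lowest in wild-type 4, as had 11.5% of all genes. Scaled by library size alone, 5 of the 9 were highest in knockout 2, the library with the lowest TMM factor. Of the 11 macrophage markers, 10 were highest in knockout 2 and 3 lowest in wild-type 4 (Adgre1, Csf1r and Fcgr1). Among them was Adgre1, the gene of the F4/80 antigen used in the sort, which was at 661, 378, 646 and 327 CPM in wild-type and 495, 1332 and 802 CPM in knockout mice. Of those 11 markers 10 had a positive log2 fold change, with a median of 0.32, and none was at 0. Unc93b1, which carries the endosomal receptors out of the endoplasmic reticulum, was at 1222, 1251, 1244 and 1003 CPM in wild-type and 1068, 2760 and 1778 CPM in knockout mice, again highest in knockout 2 and lowest in wild-type 4. The part of the macrophage genes in the receptor values was not tested.

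**Figure D3:**
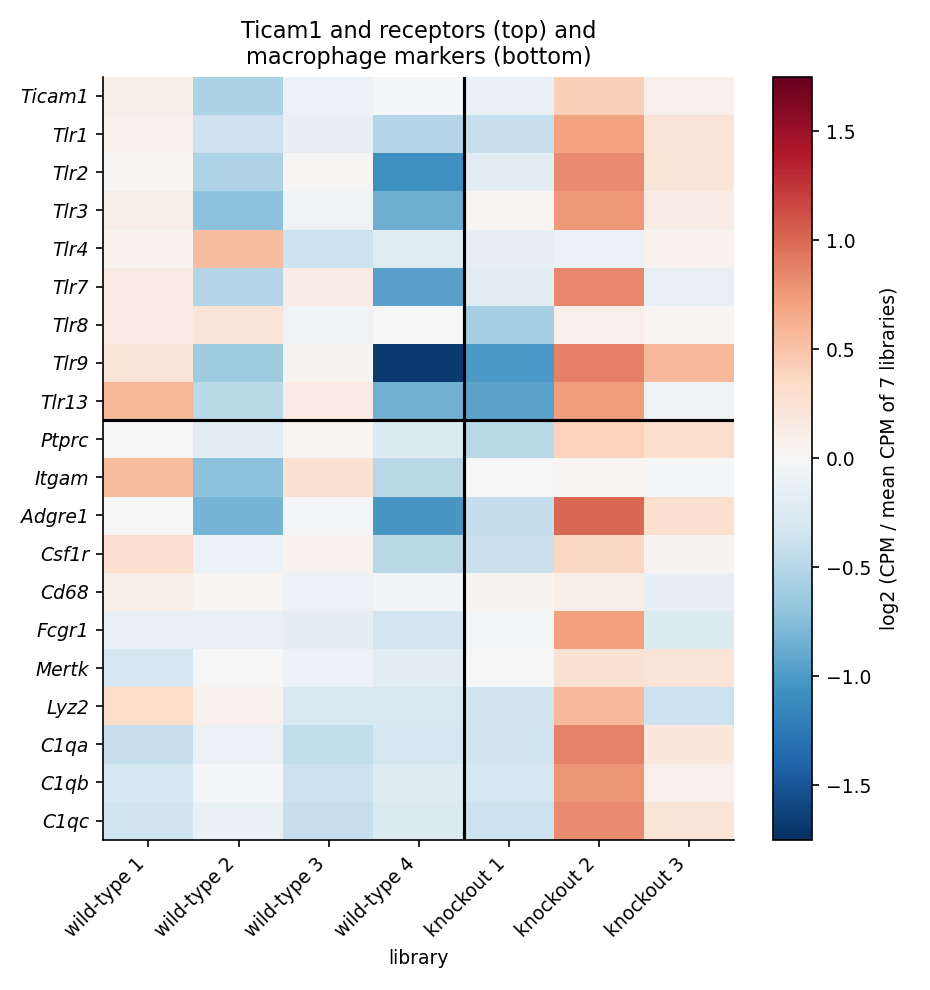
Log2 ratio of CPM to the mean of the 7 libraries (colour) for Ticam1 and 8 receptors (top rows) and 11 macrophage markers (bottom rows) in each library (columns, wild-type left of the line). Knockout 2 holds the highest value of 7 of the 9 top genes and of 10 of the 11 markers.

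Compared per length, as CPM per kilobase (kb) of merged exons, the levels of the 10 genes spanned a wide range in wild-type mice. Tlr2 was highest at 168 ± 55.4 CPM per kb (SD, n = 4), followed by Tlr13 at 42.3 ± 18.3, and the mice of neither overlapped those of the gene next in order. Tlr1 (19.2 ± 3.48 CPM per kb), Tlr8 (15.8 ± 1.51), Tlr4 (12.4 ± 3.62), Tlr7 (10.8 ± 3.71), Tlr3 (5.98 ± 1.95) and Ticam1 (4.32 ± 0.8004) followed, and each overlapped the next in this run. Wdfy1 came next at 2.14 ± 0.182 CPM per kb, below every Ticam1 value, and Tlr9 was last at 0.772 ± 0.380, below every Wdfy1 value.

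In knockout mice Wdfy1 moved from rank 9 to rank 7, at 9.58 ± 1.10 CPM per kb (SD, n = 3). There it lay beside Tlr3 (9.52 ± 2.71 CPM per kb), whose mice overlapped its own, and below all values of Tlr4 (11.6 ± 0.900). The order was otherwise Tlr2 (266 ± 96.4 CPM per kb), Tlr13 (45.3 ± 25.0), Tlr1 (26.4 ± 9.75), Tlr7 (15.0 ± 6.47), Tlr8 (13.7 ± 3.22) and Tlr4 above it, and Ticam1 (5.22 ± 1.01) and Tlr9 (1.23 ± 0.672) below. Tlr2 did not overlap Tlr13, Tlr4 did not overlap Wdfy1, Tlr3 did not overlap Ticam1 and Ticam1 did not overlap Tlr9, while the remaining neighbours did. The length matters for Wdfy1, whose merged exons cover 6488 bases against 4551 for its longest coding transcript, by which its levels were 3.05 ± 0.259 CPM per kb (SD, n = 4) and 13.7 ± 1.57 CPM per kb (SD, n = 3). By coding transcript length its wild-type mice, at 2.85 to 3.43 CPM per kb, overlapped those of Ticam1 (3.20 to 5.08). Its knockout mice, at 12.5 to 15.5 CPM per kb by that length, overlapped those of Tlr8 (10.4 to 16.5) and Tlr4 (14.9 to 17.2), so both separations held only with merged exons.

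**Figure D4:**
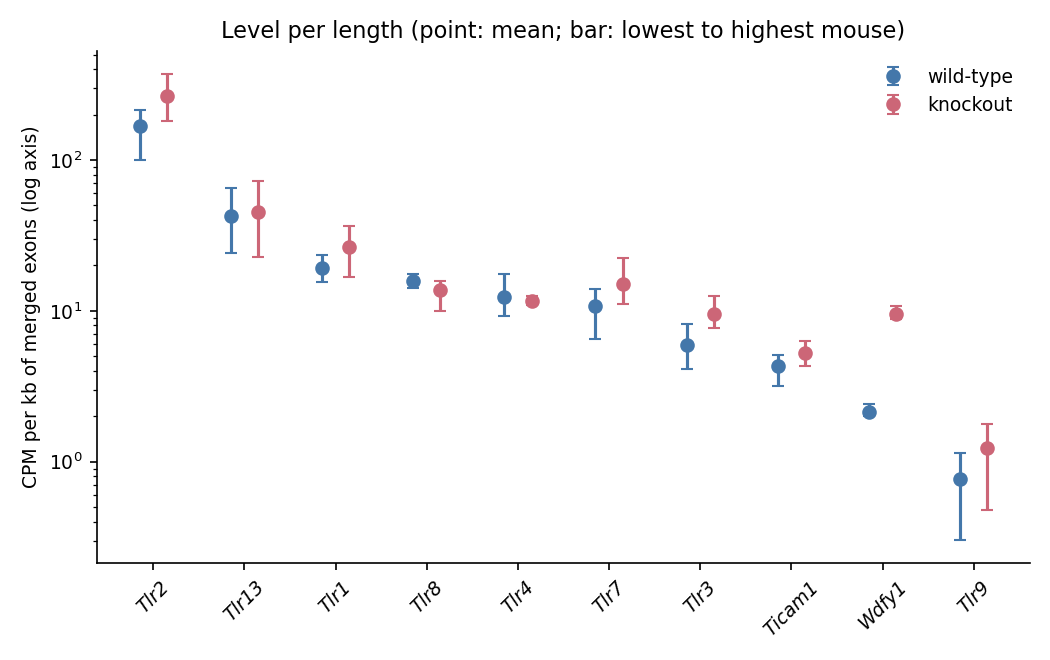
CPM per kb of merged exons (vertical log axis) of the 10 genes in wild-type and knockout mice, in the wild-type order, with points for means and bars from the lowest to the highest mouse. Tlr2 is highest in both genotypes, and Wdfy1 lies between Ticam1 and Tlr9 in wild-type mice and beside Tlr3 in knockout mice.

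The 4 Toll-like receptors outside the chosen set did not pass the test either. Tlr5, the receptor for flagellin, was at 12.6, 12.7, 7.80 and 8.85 CPM in wild-type 1 to 4 and at 6.25, 3.82 and 4.85 CPM in knockout 1 to 3, with every knockout value below every wild-type value (log2 fold change -1.07, SE 0.30, edgeR adjusted p = 0.74). Tlr6, the partner of TLR2 for diacylated lipoproteins, was at 24.6, 18.7, 19.7 and 11.8 CPM in wild-type and 9.50, 25.8 and 22.6 CPM in knockout mice, and its log2 fold change was 0.04 (SE 0.36). Tlr12, a receptor for the parasite protein profilin, was at 19.9, 69.0, 36.1 and 26.7 CPM in wild-type and 6.15, 217 and 196 CPM in knockout mice, so knockout 1 was the lowest of all 7 and the other knockout mice the highest (log2 fold change 1.88, SE 0.89, edgeR adjusted p = 0.96). Tlr11, its partner in profilin sensing, was at or below 5.92 CPM in every library.

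The other 3 genes of the Wdfy name did not share the pattern of Wdfy1. Wdfy2, an endosomal protein of like domain make-up, was at 94.7, 151, 104 and 141 CPM in wild-type 1 to 4 and at 62.6, 74.2 and 155 CPM in knockout 1 to 3 (log2 fold change -0.33, SE 0.32). Wdfy3, a large scaffold of selective autophagy, was at 121 ± 23.8 CPM (SD, n = 4) and 123 ± 11.4 CPM (SD, n = 3), with 0.01 (SE 0.19). Wdfy4, needed for cross-presentation in dendritic cells, was at 85.0 ± 27.5 CPM (SD, n = 4) and 71.8 ± 2.61 CPM (SD, n = 3), with -0.24 (SE 0.24).

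The rest of the pathway was read from 10 lists that follow its steps. In them 108 genes were tested, and 0 passed an adjusted p of 0.05 in edgeR (smallest 0.74), DESeq2 or limma voom. Of all 16234 genes, 6 passed in edgeR, 114 in DESeq2 and 10 in limma voom. An unadjusted edgeR p under 0.05 was found for 10, or 9.26% beside the 5.37% of all genes. In 5 genes (Tab2, Tnf, Tollip, Otud5 and Cxcl10) every knockout value lay above every wild-type value, or 4.63% beside the 2.8% of all genes, and in 1 (Tlr5) every one lay below, or 0.926% beside 3.33%. The log2 fold change was positive for 68 (63%, beside 49.7% of all genes) and negative for 40, with a median of 0.11.

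Genes of ligand capture and receptor trafficking, 13 of 14 tested, had 9 positive and 4 negative log2 fold changes (median 0.17). Cd14, which hands lipopolysaccharide to TLR4, was at 2685 ± 520 CPM (SD, n = 4) and 2608 ± 276 CPM (SD, n = 3), with -0.04 (SE 0.21). Cd180, a TLR4-like receptor that dampens it, had the most positive value, 0.82 (SE 0.41), and Cd36, a scavenger receptor that works with TLR2, the most negative, -0.44 (SE 0.30).

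The 12 genes of the MyD88 branch split 7 to 5 (median 0.04). Tab2, which links TRAF6 to the kinase TAK1, was at 57.1 ± 4.80 CPM (SD, n = 4) and 73.5 ± 6.26 CPM (SD, n = 3), without overlap (log2 fold change 0.36, SE 0.15, edgeR adjusted p = 0.92). Its relative Tab3 was the most negative, at -0.63 (SE 0.45), and Irf5, the transcription factor of this branch and its most abundant gene, was at 492 ± 70.6 CPM (SD, n = 4) and 520 ± 114 CPM (SD, n = 3). The 14 genes of the TRIF branch, to which Wdfy1 belongs by its reported role, split 6 to 8 (median -0.01). The ubiquitin ligase Peli1 had 0.67 (SE 0.23, edgeR adjusted p = 0.82). Ticam2, the adaptor that couples TLR4 to TRIF, had -0.50 (SE 0.24), and Casp8, the most abundant, was at 127 ± 6.58 CPM (SD, n = 4) and 122 ± 33.6 CPM (SD, n = 3).

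Of 14 brakes on the pathway, 10 had a positive and 4 a negative log2 fold change (median 0.23). Tollip, an inhibitor of the receptor-proximal kinases, had 0.41 (SE 0.15), Tnfaip3, the gene of the ubiquitin editor A20, 0.70 (SE 0.49), the phosphatase gene Dusp1 0.53 (SE 0.27) and the IL-33 receptor Il1rl1 -1.04 (SE 0.56). Dusp1 is also a dissociation stress gene, and those 7 genes summed to 11658 to 13222 CPM in wild-type and 11500 to 16406 CPM in knockout mice, with 4 positive and 3 negative and none at 0. Their part in the Dusp1 values was not tested.

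Transcripts that Toll-like receptor signalling induces, 16 in all, had 13 positive and 3 negative log2 fold changes (median 0.27), where 49.7% of all genes were positive. An unadjusted edgeR p under 0.05 was found for 3 of the 16, beside 5.37% of all genes. Cxcl10, an interferon-induced chemokine, was at 209, 183, 310 and 229 CPM in wild-type 1 to 4 and at 343, 459 and 384 CPM in knockout 1 to 3 (log2 fold change 0.76, SE 0.21, edgeR adjusted p = 0.74). Tnf was at 28.5, 33.2, 38.4 and 28.2 CPM in wild-type and 40.7, 57.4 and 52.1 CPM in knockout mice (0.64, SE 0.19, edgeR adjusted p = 0.75). In both genes the groups did not overlap. Ccl5, a T cell attracting chemokine, was at 19.5, 78.4, 29.7 and 34.1 CPM in wild-type and 42.9, 283 and 173 CPM in knockout mice, with wild-type 2 above knockout 1 (2.04, SE 0.62, edgeR adjusted p = 0.78). Ccl5 is also made by T and NK cells, whose 8 markers summed to 19.1 to 82.2 CPM in wild-type and 14.3, 35.4 and 273 CPM in knockout 1 to 3, with 7 positive, 1 negative and none at 0, and their part in the Ccl5 values was not tested. Il1b, the most abundant of the list, had -0.13 (SE 0.36), and Il6, at or below 4.59 CPM in every library, had -2.09 (SE 1.21).

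All 9 genes of cytosolic nucleic acid sensing had positive values (median 0.29), where 49.7% of all genes did, and 1 of 9 had an unadjusted edgeR p under 0.05, beside 5.37% of all genes. Ifih1, the double-stranded RNA sensor MDA5, was at 61.3 ± 10.2 CPM (SD, n = 4) and 90.3 ± 27.9 CPM (SD, n = 3), with 0.56 (SE 0.23, edgeR adjusted p = 0.92). Mavs, the adaptor of this route, had 0.11 (SE 0.20), and Zbp1, the most abundant, 0.44 (SE 0.38). Of the 9, 6 were highest in knockout 2, as were 17.7% of all genes.

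Endosomal genes with a FYVE domain, the domain Wdfy1 carries, numbered 15 (Wdfy2 and Wdfy3 among them), of which 5 had positive and 10 negative log2 fold changes (median -0.04). Fgd2, an exchange factor for the small GTPase Cdc42 and the most abundant of them, was at 259 ± 49.9 CPM (SD, n = 4) and 412 ± 155 CPM (SD, n = 3), with 0.67 (SE 0.28, edgeR adjusted p = 0.92), and Plekhf1 had -1.21 (SE 0.57). The 10 kinases, cofactors and phosphatases that make or remove PI3P split 6 to 4 (median 0.07), from -0.17 (SE 0.25) for the phosphatase gene Mtmr3 to 0.13 (SE 0.34) for Atg14, which directs the kinase complex to autophagy. Mtmr6, the most abundant, had 0.10 (SE 0.25).

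**Figure D5:**
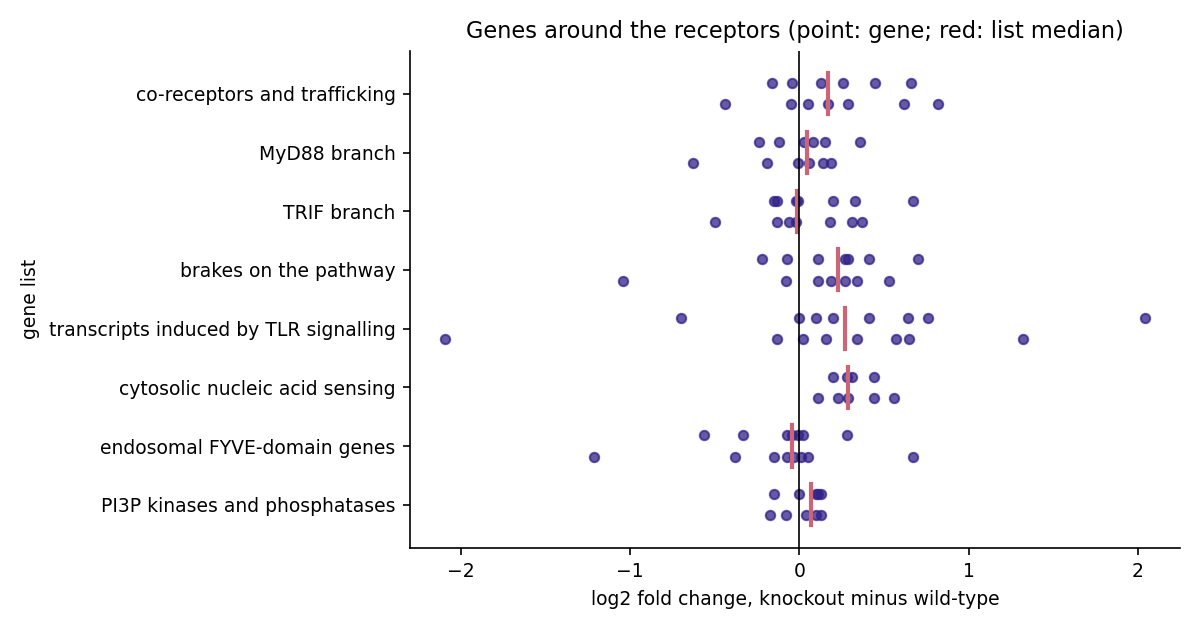
Log2 fold change, knockout minus wild-type (horizontal axis), of each tested gene (points) in 8 lists around the receptors (rows), with the list median in red. List medians lie between -0.04 and 0.29, and no gene shown passed the adjusted threshold.

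As the breeding of the mice is not given, genes reported to differ between C57BL/6 substrains were read as well. Nnt, a mitochondrial transhydrogenase gene that carries a deletion in C57BL/6J mice, was at 57.9, 20.8, 40.4 and 34.0 CPM in wild-type 1 to 4 and at 19.6, 18.4 and 13.1 CPM in knockout 1 to 3, every knockout value below every wild-type value (log2 fold change -1.17, SE 0.33, edgeR adjusted p = 0.74). Cyfip2, an actin regulator, had 0.54 (SE 0.52). Ide, Entpd4 and Entpd4b had 0 counts in all libraries, and Crb1 was too low to test. Sequence that these genes share with others was not examined, so 0 counts cannot be read as lack of expression. The part of strain background in the Wdfy1 difference was not tested.

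The genes whose pattern over the 7 libraries was most like that of Wdfy1 were sought among 10419 genes by the root mean square difference of standardised log2 CPM, where 0 is an identical pattern. The 5 nearest were Slfn2 (0.112), Slfn9 (0.153), Sh3d21 (0.176), Slfn5 (0.179) and Prkar1b (0.197), and the next gene was at 0.212. Slfn2, a Schlafen family gene, had 0 counts in the 4 wild-type mice, which allows up to 0.125 CPM (3 counts a library, counting error only). It was at 22.7, 20.8 and 14.5 CPM in knockout 1 to 3. Sequence that Slfn2 shares with other genes was not examined, so its 0 counts cannot be read as lack of expression. Slfn5, of the same family, was at 12.6, 9.61, 13.2 and 7.02 CPM in wild-type and 52.8, 86.1 and 57.7 CPM in knockout mice. Slfn9, likewise a Schlafen gene, was at 0.582, 1.12, 1.46 and 1.28 CPM in wild-type and 26.3, 34.6 and 22.4 CPM in knockout mice. Slfn5 (chr11:82951349-82964840), Slfn9 (chr11:82978390-82991830) and Slfn2 (chr11:83065112-83070678) lie close together. Whether these genes differ separately from each other was not tested. Sh3d21, a gene for a protein with SH3 domains, was at 2.37, 2.12, 2.16 and 2.05 CPM in wild-type and 4.37, 6.18 and 5.22 CPM in knockout mice. Prkar1b, which encodes a subunit of protein kinase A that binds cyclic AMP, was at 15.6, 17.1, 16.1 and 17.9 CPM in wild-type and 30.9, 39.8 and 36.4 CPM in knockout mice. Each of the 5 separated the genotypes, as any gene near Wdfy1 by this measure must, and with ranks in place of values 0 of the 5 were among the 10 nearest.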

How the data were processed

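Libraries of polyA RNA were made with a SMART-seq kit, per the labels' protocols. The authors deposited whole-number read counts per gene, without normalization. The submitters' processing notes name cutadapt 1.15, FastQC 0.11.5, BWA 0.7.12, DESeq2 1.24.0 and build GRCm38, with no role or order. The program that counted the reads and its strand setting were not given in the sources used here. Reads of overlapping genes on opposite strands were therefore not told apart. Ensembl identifiers were matched to GENCODE M21 (53274 of 53379, 99.8%). Rows that name no symbol made up 0.000338% of all counts and stayed in under their identifier.

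Counts were fitted in edgeR 4.0.16 (R 4.3.3) with TMM scaling, filterByExpr by group, robust quasi-likelihood estimation, the genotype as the only term and Benjamini-Hochberg adjustment at 0.05. Each SE was the absolute fold change divided by the square root of F. The common biological coefficient of variation was 42.9%. Tested on simulated data for the knockout against wild-type comparison (16234 genes), the fit called 17 of 100 genes with a 2-fold change and 65 of 100 with a 4-fold change. Levels per length used GENCODE M21 exons, and sequences came from its GRCm38 transcripts. Log2 CPM for patterns used a prior count of 2, over genes with a mean log2 CPM of at least 1.

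The members and lists were chosen with earlier results of these data known. Of each list the text names genes that pass, the most abundant gene and the genes with the most positive and most negative fold change at a mean of at least 1 CPM, and all Tlr and Wdfy genes. Tollip, Otud5, Cxcl10, Tnf, Unc93b1 and the single cell type markers named fall outside that rule and were picked after their values were seen. Alternatives were other scalings and filters, DESeq2 1.42.0, limma 3.58.1 voom, the mouse number as a block and each library left out.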

Additional observations from a re-analysis of the deposited data

Results flagged for a closer look

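Among 46 sets of 4 wild-type CPM values examined, 1 had a library far from the other 3. Il1b, an inflammatory cytokine gene that Toll-like receptor signalling induces, was at 3996 CPM in wild-type 2 and at 1712, 1720 and 1837 CPM in the other wild-type mice, so the gap to the nearest mouse was 0.945 of the whole range, above Dixon's critical value for 4 samples. Chance sets about 1 in 20 such sets apart. The knockout mice were at 1476, 2717 and 2137 CPM, and groups of 3 were not examined in this way.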

How the results depend on the processing

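Of 144 log2 fold changes of Ticam1 and the 8 receptors over 16 other settings, 137 kept their direction, 7 turned, and 0 of the 9 genes passed under any setting, an adjusted p of 0.1 included. Tlr4 (main -0.10) turned to 0.10 in limma voom and ranged from -0.23 to 0.11 with each library left out, turning without wild-type 2. Tlr13 (main 0.10) turned to -0.19 with the replicate block and -0.11 with library size alone, and ranged from -0.41 to 0.41 with each library left out, turning without wild-type 2, wild-type 4 or knockout 2. The number of genes called over the whole table (main 6) was 11 with no filter on low counts, 114 in DESeq2, 10 in limma voom and 1 with the replicate block, and 3 to 14 with each library left out (3 without knockout 2, 14 without knockout 1). The cause was not tested. Same-numbered mice of the 2 genotypes correlated in their deviations at 0.066, 0.051 and 0.088. Differently numbered mice were not compared in this way, so whether a number marks a shared batch, day or litter cannot be told. Wdfy1 ran from 2.03 to 2.21 over all settings. Library size alone was added after seeing the data and moved the median of all genes by -0.107. The counts of positive fold changes (6 to 8 of 9 over the settings) and of genes highest in knockout 2 were also chosen after seeing the data. Of 20 levels per kb, 4 moved by over 1 SD with coding transcript length. With 42.9% biological variation and 4 against 3 mice, 2-fold differences are mostly missed.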
